A study of Mus musculus with 15 samples.

Results

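The mouse microRNAs numbered 5000 or higher but below 6000 in the miRNA registry were taken as a group, by the rule that the array names them mmu-miR- followed by such a number, with any suffix. They are 71 of the 1122 mouse miRNAs on the array, and the rule used no measured value. They were measured in 15 samples of cells differentiating from mouse epiblast stem cells (EpiSC, primed pluripotent cells). The EpiSC were derived from Pitx3-GFP mice, in which green fluorescent protein reports Pitx3, a transcription factor of midbrain dopaminergic neurons. All 5 groups share this reporter, and each has 3 arrays: cells at day 5 of differentiation, before any morphogen; treated cells at day 9 and at day 14, given SHH and FGF8 from day 5 to direct them to the dopaminergic fate; and control cells at day 9 and at day 14, kept without these morphogens. The labels call the treated samples DA cells and the controls EpiSC. They describe no sorting for the reporter and do not say whether replicates were separate cultures, so each p-value covers only the spread between these arrays, which may be technical.

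A mature miRNA is a short RNA cut from a hairpin, and it directs the silencing complex to messenger RNAs that pair with its seed, the stretch near its 5′ end. Registry numbers follow the order of description, so high numbers belong to late entries, found mostly by deep sequencing of small RNAs rather than by conservation. Some loci of late entries lie inside genes for other short RNAs, such as small nucleolar RNAs.

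Mature sequences from RefSeq (mouse build GRCm38.p6) were found for 51 of the 71 members and for 10 of the 17 that were bright enough to test. The 8 below are those with a called difference between treated and control cells and a level clear of the floor. They are written 5′ to 3′ with the seed, bases 2 to 8, in capitals.
miR-5100: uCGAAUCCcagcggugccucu
miR-5103: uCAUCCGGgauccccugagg
miR-5119: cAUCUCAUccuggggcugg
miR-5121: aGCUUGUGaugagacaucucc
miR-5126: gCGGGCGGggccgggggcgggg
miR-5128: cAAUUGGGgcuggcgagauggcu
miR-5131: cGGCGCCCcacggagccccgagc
miR-5622-3p: cUUAGCUGgguagugguggugc
No 2 of them share a seed, and each of the 10 tested members with a sequence has a seed that no other of the 1679 mature miRNAs in the table carries, as 72.1% of those 1679 do.

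These loci are scattered and lie mostly within other genes. miR-5121 is at chr7:45126925-45126945 on the minus strand, and all 21 of its bases lie inside the interval of Snord33, a small nucleolar RNA that guides ribose methylation of ribosomal RNA, itself within the ribosomal protein gene Rpl13a. The table used gave no strand for Snord33 or any other gene named here. Overlaps are by position alone, and whether a member shares the strand of its gene was not checked. miR-5100, at chr11:60728698-60728718 on the plus strand, lies in the interval of Mief2, a gene for a mitochondrial fission adaptor. It begins with the letters UCGANUCC, which are also letters of the B box of tRNA genes, an internal promoter element. On the RNA strand, these letters occur in 2 of 1679 mature miRNAs (0.119%), miR-5100 and miR-434-3p.
miR-5622-3p, at chr2:152865105-152865126 on the plus strand, lies in Tpx2, a spindle assembly gene. miR-5119 (chr11:98262638-98262656, plus) lies in Cdk12, which encodes a kinase of RNA polymerase II, and miR-5128 (chr2:37688212-37688234, minus) in Strbp, which encodes an RNA-binding protein. miR-5126 (chr1:84695890-84695911, plus) lies in Dner, a Notch-type receptor of neurons, and miR-5131 (chr14:45657972-45657994, minus) in Ddhd1, a phospholipase gene. miR-5103 (chr1:34433130-34433149, minus) overlaps no gene of the table.

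The base composition of these RNAs spans a wide range. All 22 bases of miR-5126 are G or C, against a G and C share of 87.0% in miR-5131 and 47.6% in miR-5121. A stretch of 15 bases of miR-5126 occurs, on either strand, in 44 of 32851 promoter windows of 300 bases, while the median mature miRNA has such a stretch in 0 windows and 27.1% have it in any.

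A miRNA was called above background on an array when at least 50% of the spots of any of its probes carried the scanner's flag. By this measure 21 of the 71 members were detected on at least 1 array (29.6%), against 35.5% of miRNAs numbered below 1000 with let-7, 24.4% of those from 1000 to below 2000 and 23.5% of those from 2000 to below 5000. The other 50 members were not above background on any array. Members that were detected were mostly detected throughout: 14 of 71 (19.7%) were above background on all 15 arrays, against 17.1% of all mouse miRNAs.

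The other 7 detected members were above background on some arrays. miR-5117-3p was above background on 12 arrays, all but those of control day 14 cells. miR-5130 was above background on 9 arrays, with 3 of 3 in each day 14 group and 1 of 3 in each earlier group. miR-5120 was above background on the 3 arrays of treated day 14 cells and on none of the other 12. miR-5620-3p was above background on 6 arrays, miR-5116 and miR-5132 on 2 each, and miR-5111-5p on 1. These 4 never filled a group and were not tested, which left 17 members among the 306 miRNAs tested.

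**Figure D1:**
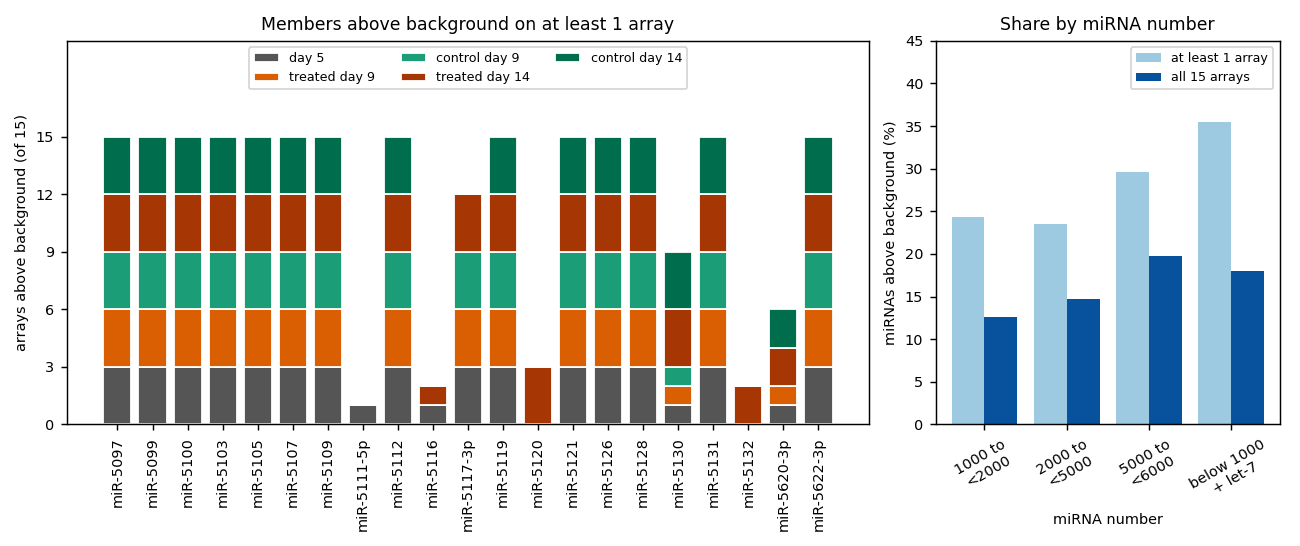
Left, number of arrays above background for each of the 21 detected members, stacked by group (3 arrays each). Right, share of miRNAs in each number range above background on at least 1 array and on all 15, in percent. All 15 arrays are filled by 14 members, and miR-5120 and miR-5132 appear in treated day 14 cells alone.

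Levels are given as log2 scaled signal, where 0 is the 75th percentile of that array's bright probes and -4.27 is the floor at which dim values were set. Unscaled, miR-5109 read 6697 to 22048 intensity units over the 15 arrays, miR-5622-3p 344 to 1379 and miR-5120 4.36 to 21.3. Probes differ in affinity, so levels of different members are not compared. No spot was saturated, and the arrays had 15 to 20 members and 238 to 333 of all mouse miRNAs above background.
Arrays lay on 2 slides: slide 1 held day 5, treated day 9 and treated day 14 replicates 1 and 2, and slide 2 held treated day 14 replicate 3 and all controls. Labelling spike-ins read 2.97 to 3.11 (log10) on slide 1 and 2.71 to 2.86 on slide 2. Each day 9 group lay on 1 slide, so slide and treatment cannot be told apart there, and only the treated day 14 arrays link the slides. There, slide 1 minus slide 2 had a median of 0.05 over the 17 members, from -0.19 (miR-5105) to 0.83 (miR-5117-3p), and 0.08 over all 306.

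Marker miRNAs of the cells followed the labels in part. The 5 EpiSC markers were above background at day 5, and miR-302d-3p had a mean log2 level of 0.09 there, -2.11 and -2.47 in treated and control day 9 cells, and -3.32 and -3.36 at day 14. miR-124-3p, a neuronal miRNA, had means of 1.05 at day 5, 1.33 in treated and 2.30 in control day 9 cells, and 2.26 in treated and 3.30 in control day 14 cells. Of the miRNAs linked to dopaminergic neurons, miR-133b-3p was above background on no array, and miR-218-5p and miR-7a-5p were on all 15. Mean log2 levels of miR-218-5p were -0.49 in treated and -1.39 in control cells at day 9 and 0.23 and -1.04 at day 14, and those of miR-7a-5p were -0.83 and -1.82, then -0.25 and -0.49. Of 11 markers of blood, vessel, muscle, mesenchyme and endoderm, miR-199a-3p, a mesenchymal miRNA, was above background on the 6 treated arrays at day 9 and day 14 and on no other array, and the other 10 were on none. The part of any such cells in the results below was not tested. With whole cultures, fewer cells of a type and less of a miRNA per cell cannot be told apart.

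The first comparison asked which members differ after 4 days of SHH and FGF8. At day 9, 3 members were higher in treated than in control cells, miR-5097, miR-5100 and miR-5117-3p, and 6 were lower, miR-5105, miR-5107, miR-5109, miR-5121, miR-5126 and miR-5622-3p. These 9 of 17 stand against 55.6% of all 306 miRNAs called in either direction, 40.5% higher and 15% lower. The arrays of the groups did not overlap in 10 members, against 71.2% of all 306. The median difference was -0.06 over the members and 0.25 over all 306.

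miR-5097 had the largest difference among the 17 members at day 9. It read 2.82, 2.73 and 3.06 in treated cells and 0.99, 0.86 and 0.73 in control cells, means of 2.87 ± 0.17 and 0.86 ± 0.13 (SD, n = 3 each). Treated cells were 4.03-fold higher (log2 difference 2.01, SE 0.23, limma adjusted p = 6.47e-06), and day 5 cells, at 3.38, 2.89 and 2.41, overlapped the treated ones and were all above the control arrays. The second probe of miR-5097, also above background on all arrays, gave 2.18.
miR-5117-3p read -2.03, -2.05 and -2.13 in treated cells and -3.73, -3.72 and -4.06 in control cells. The groups were far apart but the control arrays sat close to the floor. The difference was 1.77 (SE 0.21, limma adjusted p = 7.75e-06), and with the floor set 4 times higher it shrank to 0.20 and was not called.
miR-5100, shown above with its B box letters, read 5.85, 5.61 and 5.90 in treated cells and 4.98, 4.74 and 4.71 in control cells. It was 1.97-fold higher in treated cells (0.98, SE 0.22, limma adjusted p = 0.00212), with no overlap of the arrays. Its second probe gave 1.29. The call of miR-5100 ended with scaling by all probes (0.39) and with the slide as a block (0.88).

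Among the lower members, miR-5622-3p, the Tpx2 locus, had the smallest adjusted p. It read 1.17, 1.04 and 1.10 in treated cells and 2.06, 1.97 and 1.85 in control cells, so that treated cells were 1.81-fold lower (-0.86, SE 0.07, limma adjusted p = 1.27e-07). Both of its probes gave differences 0.0027 apart, and day 5 cells, at 1.28, 1.18 and 1.21, were also below every control array.
miR-5105 read 1.23, 1.03 and 1.16 in treated cells against 1.85, 1.71 and 1.84 in control cells (-0.66, SE 0.12, limma adjusted p = 0.000467). miR-5109 read 5.36, 5.19 and 5.28 against 5.77, 5.79 and 5.78 (-0.50, SE 0.09, limma adjusted p = 0.000312). miR-5121, the Snord33 locus, read -0.45, -0.36 and -0.38 against 0.10, 0.26 and 0.11 (-0.56, SE 0.09, limma adjusted p = 0.000195). In each of these 3 the treated arrays all lay below the control arrays.
miR-5126, the all-G/C sequence, read 3.54, 3.43 and 3.56 in treated cells and 4.06, 3.75 and 3.87 in control cells (-0.38, SE 0.11, limma adjusted p = 0.00811). With quantile normalization its difference was -0.24 and not called. miR-5107 read -2.14, -2.28 and -2.18 against -1.50, -1.78 and -1.73 (-0.53, SE 0.15, limma adjusted p = 0.0088). Its second probe, above background on all arrays, gave -0.05, so the probes of miR-5107 disagree, and the mean over its probes, -0.29, was not called.

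The 8 members not called at day 9 included 6 with log2 differences between -0.08 and 0.13: miR-5099 at -0.03, miR-5103 at -0.06, miR-5112 at 0.12, miR-5128 at 0.03, miR-5130 at -0.08 and miR-5131 at 0.13. miR-5119 was at -0.30 (limma adjusted p = 0.0616). miR-5120 was below background in both groups and has no fold. The brighter probe of miR-5128 gave 0.03 and its dimmer probe 0.46.

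The slide and the scaling both bear on day 9. With the slide as a block, 4 members were called: miR-5097 at 1.62, miR-5117-3p at 0.94, miR-5622-3p at -0.84, and miR-5120, which had no array above background in either group; the background fell to 24.5%. Scaling by all probes gave 2 higher and 13 lower members and median scaling 3 and 11, with the median of all 306 at -0.25 and 0.01 in place of 0.25.

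**Figure D2:**
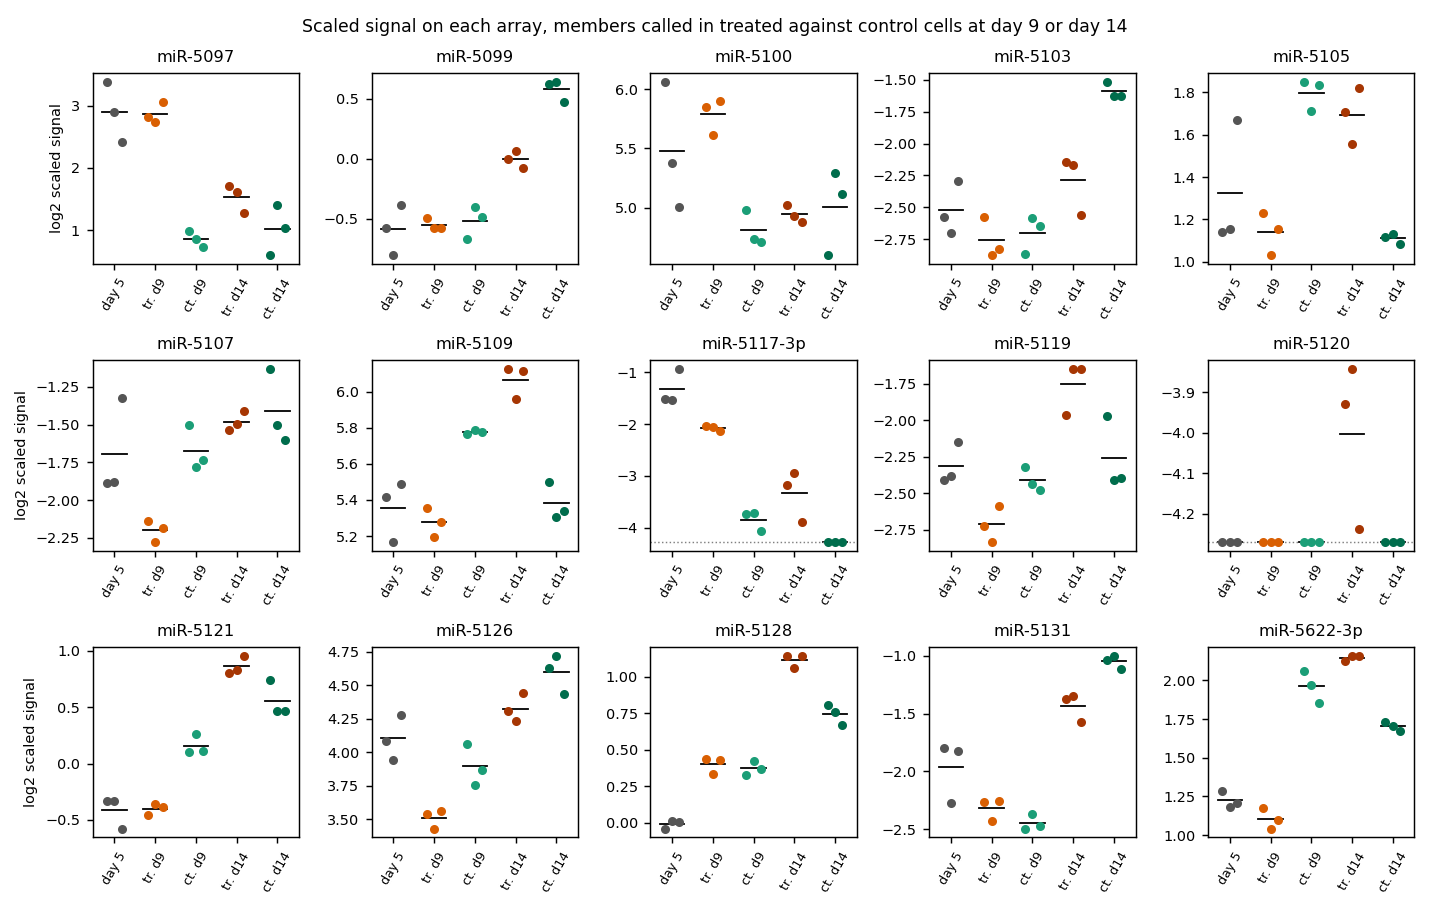
Log2 scaled signal on each of the 15 arrays for the 15 members called in treated against control cells at day 9 or day 14. Points are arrays, black lines are group means (n = 3), the dotted line is the floor at -4.27, and the vertical scale differs between panels; tr. is treated and ct. is control. In miR-5097 the day 5 and treated day 9 arrays, from 2.41 to 3.38, lie above all others.

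At day 14, 8 members were higher in treated cells, miR-5105, miR-5109, miR-5117-3p, miR-5119, miR-5120, miR-5121, miR-5128 and miR-5622-3p, and 3 were lower, miR-5099, miR-5103 and miR-5131. These 11 of 17 stand against 53.3% of all 306, 38.9% higher and 14.4% lower. They include miR-5120, tested only through the treated day 14 group, so the filter favoured a higher value there. The arrays did not overlap in 11 members, against 55.9% of all 306, and the median was 0.27 over the members and 0.21 over all.

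miR-5109 had the smallest adjusted p among the 17. It read 6.13, 5.96 and 6.12 in treated cells and 5.50, 5.31 and 5.34 in control cells, 1.61-fold higher in treated cells (0.69, SE 0.09, limma adjusted p = 2.89e-05). miR-5622-3p read 2.13, 2.16 and 2.16 against 1.73, 1.71 and 1.67 (0.44, SE 0.07, limma adjusted p = 8.51e-05). Neither member had a treated array below a control array, but with scaling by all probes their differences were 0.31 and 0.07 and not called.
miR-5105 read 1.71, 1.55 and 1.82 in treated cells and 1.12, 1.13 and 1.09 in control cells (0.58, SE 0.12, limma adjusted p = 0.00126). With scaling by all probes it was 0.21 and not called. miR-5128, the Strbp locus, read 1.14, 1.06 and 1.15 against 0.80, 0.76 and 0.67 (0.37, SE 0.06, limma adjusted p = 0.000188). Its dimmer probe gave 0.73, the same direction with a larger size.
miR-5119, the Cdk12 locus, read -1.96, -1.65 and -1.65 in treated cells and -1.97, -2.41 and -2.40 in control cells. The difference was 0.51 (SE 0.13, limma adjusted p = 0.00462), and control replicate 1 was just below the lowest treated array. The call of miR-5119 ended with scaling by all probes (0.13), median scaling (0.30), quantile normalization (0.23) and normexp background correction (0.19), within slide 2 (0.61) and with only the day 14 groups fitted. miR-5121 read 0.80, 0.83 and 0.96 against 0.74, 0.47 and 0.47 (0.30, SE 0.09, limma adjusted p = 0.0137). Its call ended without control replicate 2, without control replicate 3 and without treated replicate 3, with an adjusted p of up to 0.0599.
miR-5117-3p read -3.17, -2.95 and -3.88 in treated cells and was not well above background on any control array, so it was at least 1.85-fold higher (limma adjusted p = 0.00183). The low treated array is the one on slide 2, and within slide 2 the difference was 0.39 and not called; it was also lost with the floor 4 times higher and with normexp (0.19). miR-5120 read -3.93, -3.84 and -4.24 in treated cells and was not well above background in control cells, at least 1.16-fold higher (limma adjusted p = 0.014). Within slide 2 it was 0.03, and its call also ended without treated replicate 1 or 2. So it did with the floor 4 times higher (0.00), normexp (-0.0077), median scaling (0.05) and scaling by all probes (0.07). The deposited value table (0.23) and a fit of only the day 14 groups ended it too.

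The 3 lower members were higher in control cells on every array. miR-5103 read -2.14, -2.16 and -2.56 in treated cells and -1.52, -1.62 and -1.63 in control cells (-0.70, SE 0.13, limma adjusted p = 0.000569). miR-5099 read 0.00, 0.06 and -0.08 against 0.62, 0.64 and 0.47 (-0.58, SE 0.10, limma adjusted p = 0.000321). miR-5131, the Ddhd1 locus, read -1.38, -1.35 and -1.57 against -1.03, -0.999 and -1.12 (-0.38, SE 0.11, limma adjusted p = 0.0109), and the mean over its probes, -0.17, was not called.
The 6 members not called were miR-5097 at 0.52 (limma adjusted p = 0.0728), miR-5100 at -0.06, miR-5107 at -0.07, miR-5112 at -0.11, miR-5126 at -0.27 (limma adjusted p = 0.0504) and miR-5130 at 0.25. miR-5097 and miR-5100, both called higher at day 9, had control arrays that overlapped the treated ones, at 0.60, 1.40 and 1.04 and at 4.60, 5.29 and 5.12.

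At day 14 slide 2 held 1 treated array, replicate 3, beside the 3 controls, so the slide-adjusted values rest on that array for the treated cells, and its spread is assumed to be that of the other groups. With the slide as a block, 6 members were called higher and 3 lower, the same directions as before for each, and the background was 35%; a fit to slide 2 alone gives the same differences, with 4 called higher and 3 lower. Scaling by all probes gave 1 higher and 5 lower, with miR-5121 at -0.07 and miR-5128 at -0.00, median scaling 4 and 5 and quantile normalization 6 and 3.

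**Figure D3:**
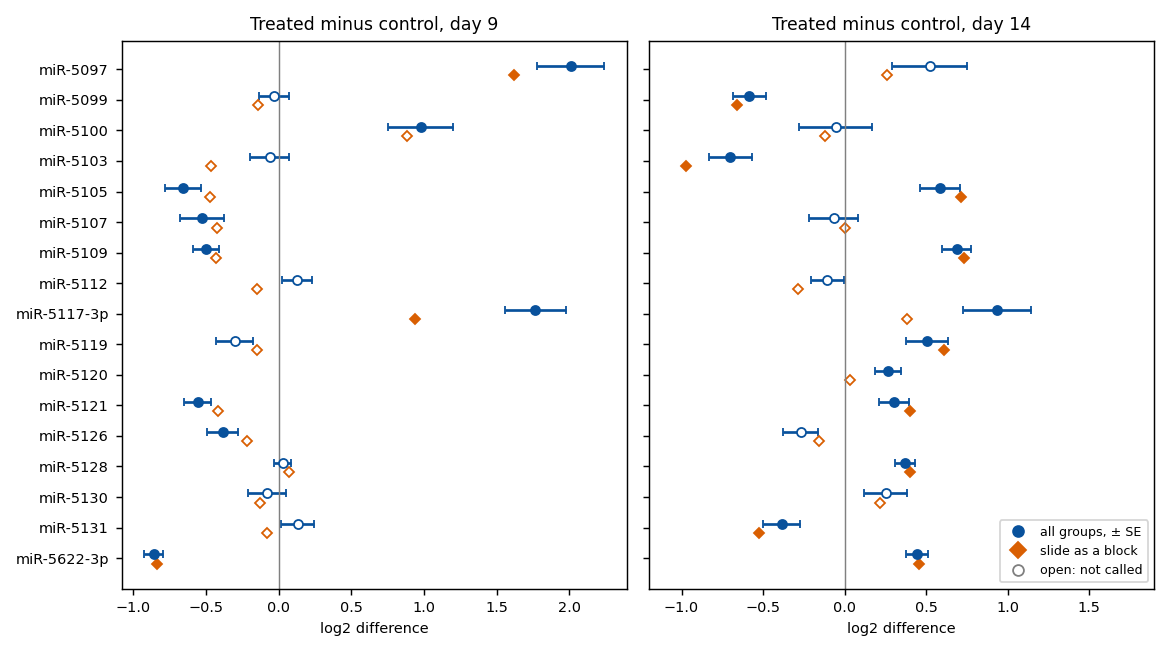
Log2 difference between treated and control cells for each tested member at day 9 (left) and day 14 (right). Circles with bars are the fit over all groups with its SE, diamonds add the slide as a block, and filled symbols have an adjusted p under 0.05. miR-5622-3p is filled in all 4 cases, at -0.86 and -0.84 on day 9 and 0.44 and 0.46 on day 14.

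The treatment difference itself changed between the days in 12 of 17 members, against 32.7% of all 306, with 6 changes upward and 6 downward against 16.7% and 16% of all 306. Scaling by all probes gave 6 and 2, and quantile normalization 7 and 2. Normexp gave 4 and 1, and no filter on dim miRNAs gave 6 and 1, so fewer downward than upward calls remained in these settings. Median scaling and a fit of only the groups compared each gave 7 and 6. The deposited value table and the replicate block each gave 6 and 5.
4 members were lower in treated cells at day 9 and higher at day 14, each time past the threshold: miR-5105, miR-5109, miR-5121 and miR-5622-3p. Such a switch, either way round, was called in 14 of all 306 miRNAs (4.58%). The change was 1.30 in miR-5622-3p (SE 0.09, limma adjusted p = 4.26e-07), 1.24 in miR-5105 (SE 0.17, limma adjusted p = 0.000139) and 1.19 in miR-5109 (SE 0.13, limma adjusted p = 1.15e-05). It was 0.86 in miR-5121 (SE 0.13, limma adjusted p = 0.000294). With scaling by all probes none of the 4 was called higher at day 14, at 0.21 for miR-5105, 0.31 for miR-5109, -0.07 for miR-5121 and 0.07 for miR-5622-3p, and miR-5121 also lost its day 14 call with median scaling (0.10) and quantile normalization (0.17). All 4 changes were also called with the slide as a block, at 1.30, 1.18, 1.16 and 0.81 (background 31%), although with that block only miR-5622-3p was called at both days.
Of the others, miR-5119 moved up by 0.81 and miR-5128 by 0.34. With normexp the changes of miR-5119 and miR-5128 were 0.297 and 0.337 and not called. miR-5097 moved by -1.49 (SE 0.32, limma adjusted p = 0.00383), miR-5100 by -1.03, miR-5117-3p by -0.83, miR-5103 by -0.64, miR-5099 by -0.55 and miR-5131 by -0.52. Single arrays decided several of these. The call of miR-5117-3p ended without any of 10 of the 12 arrays, that of miR-5131 without any of 6, that of miR-5100 without any of 4 (control day 14 replicates 2 and 3, control day 9 replicate 3, treated day 9 replicate 3) and that of miR-5103 without control day 9 replicate 1. For miR-5117-3p only treated day 14 replicates 1 and 2 could be left out, and for miR-5131 those kept were control day 9 replicate 2, treated day 9 replicate 2, treated day 14 replicates 1 and 2 and control day 14 replicates 1 and 3. With the slide as a block the calls of miR-5117-3p (-0.56) and miR-5131 (-0.45) also ended. So they did with scaling by all probes (-0.43 and -0.30), the floor 4 times higher (-0.20 and -0.39) and the mean over probes (-0.21 and -0.24). Normexp (-0.47 and -0.36), quantile normalization (-0.68 and -0.31) and no filter ended both too. The deposited value table ended the call of miR-5131 (-0.56). That of miR-5099 ended with scaling by all probes (-0.33), normexp (-0.46) and no filter. That of miR-5103 ended with scaling by all probes (-0.42), normexp (-0.45), quantile normalization (-0.23), the mean over its probes (-0.31) and no filter. That of miR-5100 ended with normexp (-0.96), quantile normalization (-0.67), the floor 4 times higher and no filter.

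From day 5 to treated day 9, all on slide 1, few members changed. miR-5128 rose by 0.41 (SE 0.06, limma adjusted p = 4.37e-05), and 5 fell: miR-5117-3p by 0.74, miR-5126 by 0.59, miR-5107 by 0.50, miR-5119 by 0.40 and miR-5131 by 0.35. These 6 of 17 stand against 58.8% of all 306, of which 37.6% rose and 21.2% fell. Of the members called between treated and control cells at day 9, miR-5117-3p, miR-5107 and miR-5126 were also called against day 5, while miR-5097 stood at -0.02, miR-5100 at 0.31, miR-5622-3p at -0.12, miR-5105 at -0.18, miR-5109 at -0.08 and miR-5121 at 0.02 and were not. The call of miR-5119 ended without day 5 replicate 3 or treated replicate 2, and that of miR-5131 without day 5 replicate 1 or 3 or treated replicate 2. Scaling by all probes gave 0 higher and 7 lower, and quantile normalization left miR-5126 at -0.10 and not called.

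From day 5 to control day 9, 5 members rose and 4 fell, against 58.8% of all 306 called, 23.9% higher and 35% lower. miR-5622-3p rose by 0.74, miR-5121 by 0.57, miR-5105 by 0.48, miR-5109 by 0.42 and miR-5128 by 0.38. miR-5117-3p fell by 2.50, miR-5097 by 2.03, miR-5100 by 0.67 and miR-5131 by 0.48. Day 5 and control day 9 lie on different slides. With the slide as a block 5 members were called, against 32% of all 306: miR-5622-3p at 0.72, miR-5128 at 0.34, miR-5097 at -1.64, miR-5117-3p at -1.68 and miR-5120, which was below background in both groups. The call of miR-5100 also ended without day 5 replicate 1 or control replicate 2 or 3. Scaling by all probes gave 6 higher and 2 lower, and median scaling 6 and 3.

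From day 9 to day 14 in treated cells, all 17 tested members changed and none of their arrays overlapped, with 14 rises and 3 falls. These rises include miR-5120, tested only through the treated day 14 group, and miR-5130, tested only through the day 14 groups. The filter that admitted both therefore favoured their rises. Of all 306 miRNAs 66% were called, 35.3% higher and 30.7% lower, and 74.8% did not overlap. The median change was 0.72 over the members and 0.01 over all 306.
miR-5121 rose from -0.40 ± 0.05 to 0.86 ± 0.08 (SD, n = 3 each), 2.40-fold (1.26, SE 0.09, limma adjusted p = 5.92e-08). miR-5622-3p rose from 1.10 ± 0.07 to 2.15 ± 0.02, 2.06-fold (1.04, SE 0.07, limma adjusted p = 1.28e-08). These were the 2 highest rises among the members.
miR-5119 rose by 0.96, miR-5130 by 0.93, miR-5131 by 0.88, miR-5112 by 0.84, miR-5126 by 0.82 and miR-5109 by 0.79. miR-5107 rose by 0.72, miR-5128 by 0.71, miR-5105 by 0.55, miR-5099 by 0.54 and miR-5103 by 0.47. miR-5120, below background at day 9, was at least 1.07-fold higher at day 14 and lost its call without treated day 14 replicate 2. That call also ended with the floor 4 times higher (0.00), normexp (-0.05), median scaling (0.05) and scaling by all probes (0.08). The deposited value table (0.23) and a fit of only the 2 groups compared ended it too. Quantile normalization left the rise of miR-5126 at 0.10 and not called, and the floor 4 times higher left that of miR-5103 at 0.08. The rise of miR-5103 was also not called with normexp (0.09) or median scaling (0.26), nor that of miR-5107 with normexp (0.32). miR-5130 was above background on 1 of 3 treated day 9 arrays, and its rise was 0.00 with that floor and 0.07 with normexp, not called in either.
The 3 that fell are the 3 that were called higher in treated cells at day 9. miR-5097 fell by 1.34 (SE 0.23, limma adjusted p = 0.000159), miR-5117-3p by 1.26 (SE 0.21, limma adjusted p = 0.000106) and miR-5100 by 0.84 (SE 0.22, limma adjusted p = 0.00456). With the floor 4 times higher that of miR-5117-3p was -0.20 and not called. Both comparisons use the treated day 9 arrays.
The balance was the same within slide 1, with 14 higher and 3 lower, and 12 or 13 higher and 3 lower under the other scalings. Normexp gave 10 higher and 3 lower, and the floor 4 times higher gave 11 and 2. The 4 viral miRNAs above background on all arrays, for which mouse cells hold no gene, had a median change of 0.26 here (-0.06 to 1.07). Their treated minus control difference had a median of 0.53 at day 9 (-0.17 to 0.85) and 0.17 at day 14 (0.01 to 1.00).

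From day 9 to day 14 in control cells, all on slide 2, 8 members rose and 3 fell, against 54.2% of all 306 called, 31.4% higher and 22.9% lower. miR-5131 rose from -2.45 ± 0.07 to -1.05 ± 0.06 (1.40, SE 0.11, limma adjusted p = 1.32e-07). miR-5103 rose by 1.11, miR-5099 by 1.10, miR-5112 by 1.07, miR-5126 by 0.70, miR-5130 by 0.60, miR-5121 by 0.40 and miR-5128 by 0.37. Quantile normalization left the rise of miR-5126 at 0.09 and not called. Those of miR-5121 and miR-5128 were not called with scaling by all probes (0.24 and 0.20) or median scaling (0.11 and 0.08). That of miR-5130 was 0.43 with scaling by all probes and not called. The rise of miR-5130 was 0.00 with the floor 4 times higher and 0.14 with normexp, not called in either. The filter, which miR-5130 passed only through the day 14 groups, favoured this rise too. All 8 also rose in treated cells, and over all 306, 79 miRNAs (25.8%) rose in both. Scaling by all probes gave 5 higher and 4 lower, and median scaling 6 and 4.
The 3 that fell in control cells were miR-5105 by 0.69, miR-5109 by 0.40 and miR-5622-3p by 0.26, and each of them rose in treated cells. Over all 306, 7 miRNAs (2.29%) were called in opposite directions in treated and control cells over these days. The 3 members are among those whose treatment difference switched sign between the days. Both results use the same arrays and group means, so this is not a separate finding. miR-5097, miR-5100, miR-5107 and miR-5119 changed by 0.15, 0.19, 0.26 and 0.15 in control cells and were not called. miR-5117-3p was not well above background on any control array at day 14, at least 1.30-fold lower than at day 9 but not called (limma adjusted p = 0.0975).

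**Figure D4:**
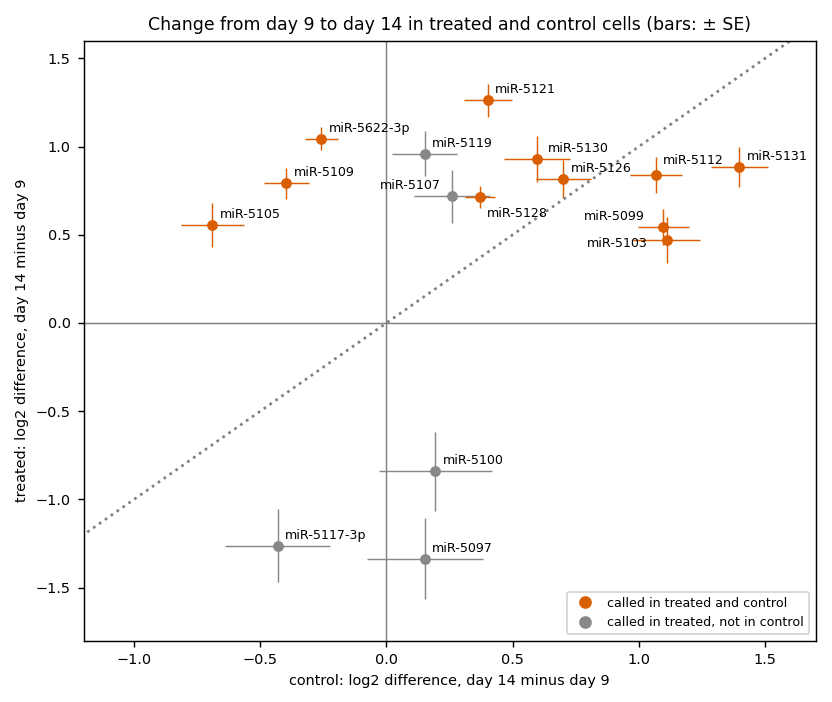
Log2 change from day 9 to day 14 in control cells (horizontal) and treated cells (vertical) for 16 tested members, with bars for the SE. Orange members were called in both and grey ones in treated cells alone; the dotted line marks equal change, and miR-5120, below background in control cells, is left out. miR-5105, miR-5109 and miR-5622-3p lie in the upper left, rising in treated and falling in control cells.

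Where a member had at least 2 probes above background on all arrays, they mostly gave like values. Of the 17 tested members, 11 had at least 2 probes above background on all arrays, and the median spread between the probes of a member was 0.06 for the treated minus control difference at day 9 and 0.07 at day 14. It was over 0.2 in 3 members at day 9, miR-5100, miR-5107 and miR-5128, and in 2 at day 14, miR-5107 and miR-5128. For the change from day 9 to day 14 in treated cells it was over 0.2 in 0 of the 11. The differences of miR-5099, miR-5103, miR-5117-3p, miR-5120, miR-5130 and miR-5131 rest on 1 probe, as their other probes were dimmer. At day 14 the dimmer probes of miR-5103 and miR-5131 gave 0.01 and 0.04, against -0.70 and -0.38 for those used. That of miR-5099 gave -0.50 against -0.58. At day 9 the other probes of miR-5117-3p, at or near the floor, gave 0.00 against 1.77.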

How the data were processed

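Total RNA (Cy3, 1 colour) was hybridised to Agilent mouse miRNA arrays, per the labels' protocols. The deposited scanner tables give background-subtracted spot signals in units of intensity, with no normalization between arrays, per the file headers (Feature Extraction 11.0.1.1); the deposited flag columns (unit other) mark with 0 or 1 whether a spot was above background, saturated or an outlier. The deposited value table, also intensity, was an alternative. In 14 columns, 73.3% to 83.8% of its probes equalled the scanner means over all spots, outliers included, within 0.1%. Against the means of non-outlier spots, which were used here, 40.7% to 53.2% did. Its treated day 14 replicate 2 column repeats replicate 1 (86.0%), so both counted as 1 replicate there. Its scale is linear and uncentred, with column medians of -0.02 to 0.70. The submitters' processing notes name limma 3.20.9; its use is not given in the sources used here.

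Non-outlier spots of a probe were averaged, scaled to the 75th percentile of 353 mouse probes that every array had above background, floored at -4.27 and taken to log2. The brightest probe stood for a miRNA. Testing was limited to the 306 miRNAs detected throughout at least 1 group, in limma 3.58.1 (R 4.3.3), 5 groups fitted together, two-sided, 10 residual degrees of freedom, Benjamini-Hochberg over all 306, called at 0.05. "At least" folds set the bright mean against the lowest signal above background on the dim arrays. The number of arrays limits the precision. The fit was tested on simulated data. The members, the marker list and the tests were chosen with earlier results of these data known. All tested members are named; those called in treated against control cells have their values given by array. The normexp alternative used median spot signals, since the files used here hold no mean signal. Alternatives were scaling, background, floor, filter, probe choice, slide, replicate number, samples fitted and each array left out.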

Additional observations from a re-analysis of the deposited data

Results flagged for a closer look

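In 12 members the difference between treated and control cells at day 14 differed from that at day 9 by the interaction test in limma. The change in log2 difference was 1.30 for miR-5622-3p, 1.24 for miR-5105, 1.19 for miR-5109, 0.86 for miR-5121, 0.81 for miR-5119 and 0.34 for miR-5128. It was -1.49 for miR-5097, -1.03 for miR-5100, -0.83 for miR-5117-3p, -0.64 for miR-5103, -0.55 for miR-5099 and -0.52 for miR-5131. Of all 306 miRNAs tested, 32.7% passed this test. Groups of 3 arrays were not searched for single outlying arrays.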

How the results depend on the processing

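Of 75 calls of a member in a comparison, 65 held in every fit that left out 1 array of the groups compared. Over those fits the number of members called was 9 to 9 for treated against control cells at day 9, 10 to 12 at day 14, 9 to 13 for the change in that difference, 4 to 6 from day 5 to treated day 9, 16 to 17 from treated day 9 to day 14, 8 to 10 from day 5 to control day 9 and 11 to 11 from control day 9 to day 14.

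Counts that moved by over 1.5 times were as follows. At day 9, 9 members became 15 with scaling by all probes, 14 with median scaling and 4 with the slide as a block. At day 14, 11 became 6 with scaling by all probes, 7 with normexp background correction and 7 within slide 2. The 12 changes of the treatment difference became 7 with no filter on dim miRNAs and 5 with normexp. The 6 from day 5 to treated day 9 became 10 with median scaling, 2 with no filter and 3 with normexp, and the 9 from day 5 to control day 9 became 5 with the slide as a block. The 21 members above background became 19 when all spots of a probe had to be above background and 27 when any spot sufficed. No filter leaves more miRNAs in the fit and in the adjustment, and slide 2 leaves fewer arrays. The cause of these moves was not tested.

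Directions reversed in 10 values. With scaling by all probes the day 9 differences of miR-5112, miR-5128 and miR-5131 became -0.47, -0.56 and -0.46, all called, and the day 14 differences of miR-5121 and miR-5128 became -0.068 and -0.00084. The day 9 difference of miR-5128 was -0.26 with median scaling and that of miR-5131 was -0.33 with quantile normalization, which also put miR-5112 at -0.20 from day 5 to treated day 9. With normexp miR-5120 stood at -0.0077 at day 14 and -0.051 from treated day 9 to day 14. The cause was not tested.

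Replicate numbers did not pair the samples: over 30 pairs of arrays with the same number the correlation of deviations from the group means ran from -0.57 to 0.53, with a median of 0.02, and 3 of 15 arrays correlated best with their own number. With the replicate block, 9, 11, 11, 6, 17, 9 and 11 members were called in the comparisons in the order above, so the block ended 1 call, that of miR-5117-3p for the change of the treatment difference (-0.83).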
